A study of Mus musculus with 6 samples.

Results

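The 3 SKG libraries were compared with one another to see which *Traj* segments were joined to *Trav* genes that lie at different distances from the *Traj* array. Productive sequences were kept when they listed the gene their library was made for, namely *Trav19*, *Trav11* or its copy *Trav11d*, or *Trav9d-3*, together with a single *Traj* gene. This left 508589 sequences of the 1411586 in the SKG libraries and of the 3675237 in all 6 libraries of the series. They comprised 252048 sequences for *Trav19*, 152879 for *Trav11* and 103662 for *Trav9d-3*.

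All libraries were made from pre-selection double-positive (DP) thymocytes, sorted as CD4+ CD8α+ cells without surface TCRβ, CD69 or CD5. SKG mice are BALB/c mice homozygous for a spontaneous hypomorphic mutation of *Zap70*, the kinase that relays the first signals of the T cell receptor. The WT controls, given beside the SKG values, were BALB/c, and both genotypes were bred as F3 offspring of a cross of SKG with BALB/cJ mice. Age and the number of pooled animals are not given in the sources used here. There was 1 library per genotype and *Trav* gene, so no value has a replicate, and every test below compares libraries and not *Trav* genes over animals. The identity of the sorted cells could not be checked, because the lists hold gene assignments and no expression values.

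The *Tcra* locus is assembled in DP thymocytes by joining a *Trav* to a *Traj* segment. The first joins use the *Trav* genes and *Traj* segments that face each other across the gap between the arrays. Because the upstream *Trav* and downstream *Traj* segments remain on the chromosome, a locus can be joined again, and each further join brings in segments that lie farther out on both sides. The numbers of the *Traj* segments fall from *Traj61*, next to the *Trav* array, to *Traj1*, next to the constant region. Joins of *Trav11* to *Traj18* can encode the invariant chain of iNKT cells, and *Traj33* is the segment of the invariant chain of MAIT cells.

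In the RefSeq annotation of GRCm38, the build that the submitters' processing notes name without stating its role, *Trav19* spans chr14:53845322-53845827. It ends 309 kb before *Traj61*, with 4 other *Trav* genes in between. *Trav11* spans chr14:53519303-53519859, 635 kb before *Traj61* with 36 *Trav* genes in between. Its copy *Trav11d* spans chr14:52824357-52824913, 1330 kb before *Traj61*. *Trav9d-3* spans chr14:52920678-52921110, 1234 kb before *Traj61* with 99 *Trav* genes in between. All except 1 of the productive *Trav11* sequences listed *Trav11* and *Trav11d* together, so the 2 positions behind that library could not be separated. The array itself spans 63.8 kb from the start of *Traj61* to the start of *Traj1*, and 60 *Traj* segments are annotated. The annotation describes C57BL/6J, and the gene content of BALB/c can differ from it.

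The libraries differed in depth and in purity. The target gene was listed by 98.4% of the sequences of the SKG *Trav19* library and by 99.9% of those of the *Trav11* library, but by 20.01% of those of the *Trav9* library, where other *Trav9* genes made up the rest. The share that 3 sequences represent, taken as the floor, was 0.00119% for *Trav19*, 0.00196% for *Trav11* and 0.00289% for *Trav9d-3*. Each distinct sequence was counted once, so a share describes neither reads nor cells, and more cells with a join cannot be told apart from more distinct sequences per cell. The 95% Wilson intervals (CI) cover counting error only, because PCR products without molecular identifiers are not independent molecules. For tests, the counting variance was therefore multiplied by a spread factor of 99.8 for *Trav19*, 78.9 for *Trav11* and 39.1 for *Trav9d-3*, which measures how far the productive share at single segments varied between the WT and SKG libraries beyond counting.

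The 3 *Trav* genes reached different distances into the array. Among *Trav19* sequences, 7.39% (95% CI 7.29 to 7.50) carried a distal segment, defined as *Traj30* to *Traj1*. The distal share was 48.7% (95% CI 48.5 to 49.0) for *Trav11* and 62.7% (95% CI 62.4 to 63.0) for *Trav9d-3*. In the WT libraries the distal shares were 4.33%, 44.9% and 57.2% in the same order, and in the unproductive SKG sequences, which were not used to choose the members, they were 6.08%, 47.1% and 61.6%. The order of the *Trav* genes was thus the same in all 3 sets of sequences. The unproductive SKG sequences came from the same libraries as the productive ones, so they are not an independent set.

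With the scaled variance, *Trav11* exceeded *Trav19* by 41.3 percentage points (standard error 1.38, 95% CI 38.6 to 44.02, adjusted p = 5.68e-197 in a two-sided quasi-binomial comparison with Benjamini-Hochberg adjustment over the 3 pairs). *Trav9d-3* exceeded *Trav19* by 55.3 points (standard error 1.59, 95% CI 52.2 to 58.4, quasi-binomial adjusted p = 5.02e-265). *Trav9d-3* exceeded *Trav11* by 13.98 points (standard error 1.75, 95% CI 10.5 to 17.4, quasi-binomial adjusted p = 1.47e-15). Fisher's exact test, two-sided and with each sequence taken as independent, gave p at or below 1e-300, the smallest value written, in each pair. The last of these differences depended on selecting *Trav9d-3*: with every *Trav* gene of the *Trav9* library counted, it turned to -7.69 points, and the excess over *Trav19* became 32.9 points. The size of the *Trav9d-3* minus *Trav11* difference also depended on the border, and it was 3.21 points with segments 1 to 40 counted as distal (quasi-binomial adjusted p = 0.0227) and 6.90 points with segments 1 to 20 (quasi-binomial adjusted p = 9.02e-05).

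Without any border, the mean *Traj* number was 47.0 for *Trav19*, 28.3 for *Trav11* and 24.9 for *Trav9d-3*. *Trav11* lay 18.6 segments farther into the array than *Trav19* on average, a *Trav11* minus *Trav19* difference of -18.6 (standard error 0.463). The difference was -22.0 for *Trav9d-3* minus *Trav19* (standard error 0.542) and -3.39 for *Trav9d-3* minus *Trav11* (standard error 0.557, 95% CI -4.48 to -2.29). The median sequence used *Traj52* with *Trav19*, 10.3 kb into the array, *Traj32* with *Trav11*, 31.1 kb into it, and *Traj22* with *Trav9d-3*, 42.2 kb into it.

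**Figure D1:**
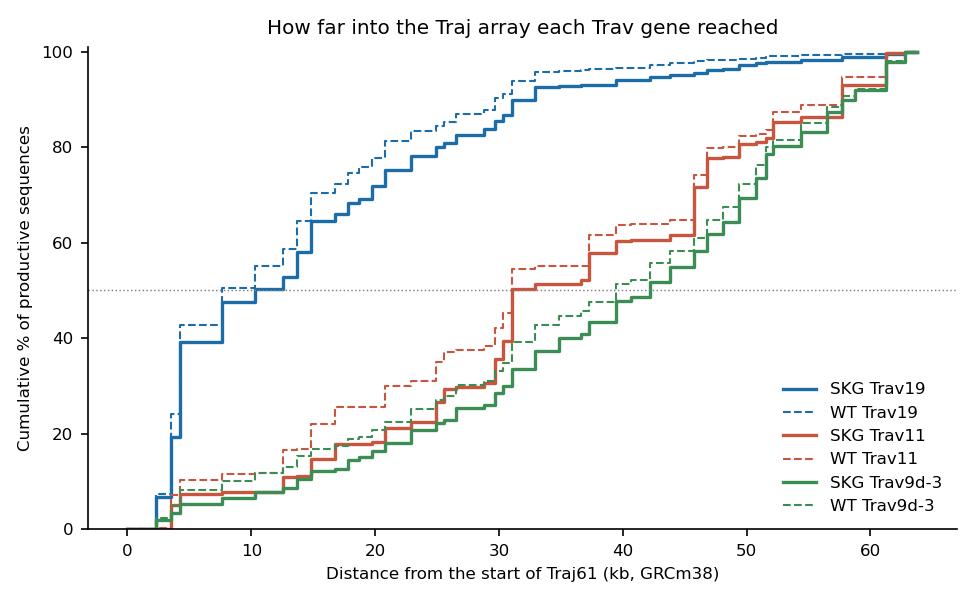
Cumulative share of productive sequences (%, y axis) against distance from the start of *Traj61* (kb, x axis) for each *Trav* gene in SKG (solid lines) and WT (dashed lines) libraries, with a dotted line at 50%. The SKG *Trav19* curve passes 50% at 10.3 kb, *Trav11* at 31.1 kb and *Trav9d-3* at 42.2 kb.

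The central window of use, from the 25% to the 75% point of the sequences, ran from *Traj56* to *Traj42* for *Trav19*, a span of 16.5 kb. It ran from *Traj39* to *Traj17* for *Trav11*, a span of 21.8 kb, and from *Traj37* to *Traj12* for *Trav9d-3*, a span of 25.03 kb. In SKG the windows of *Trav11* and *Trav9d-3* therefore overlapped over most of their length, while that of *Trav19* ended before either began. This was not so in WT, where the *Trav19* window ended at *Traj44* and that of *Trav11* began earlier, at *Traj47*. The WT spans were 14.4 kb for *Trav19*, 29.97 kb for *Trav11* and 27.8 kb for *Trav9d-3*, so their order also differed from SKG. The outer limits were less different. The first segment to hold at least 0.1% of the sequences was *Traj58* for *Trav19* and *Trav9d-3* and *Traj57* for *Trav11*, and the last was *Traj2* for each.

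By position along the array, *Trav19* placed 47.5% of its sequences in segments 61 to 53, which lie next to the TEA promoter where germline *Traj* transcription begins. *Trav11* placed 7.72% there and *Trav9d-3* 6.54%. In segments 52 to 45, around the *Traj49* promoter, the shares were 20.9% for *Trav19*, 10.2% for *Trav11* and 7.88% for *Trav9d-3*. Segments 44 to 31 held similar shares with *Trav19* (24.2%) and *Trav9d-3* (22.9%) and more with *Trav11* (33.4%, scaled standard error 1.07 points). Segments 30 to 17 held 3.48% with *Trav19*, 26.4% with *Trav11* and 24.6% with *Trav9d-3*. The last group, segments 16 to 1, set *Trav9d-3* apart: it held 38.1% of the *Trav9d-3* sequences (scaled standard error 0.943 points), 22.3% of the *Trav11* sequences (scaled standard error 0.946 points) and 3.92% of the *Trav19* sequences.

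**Figure D2:**
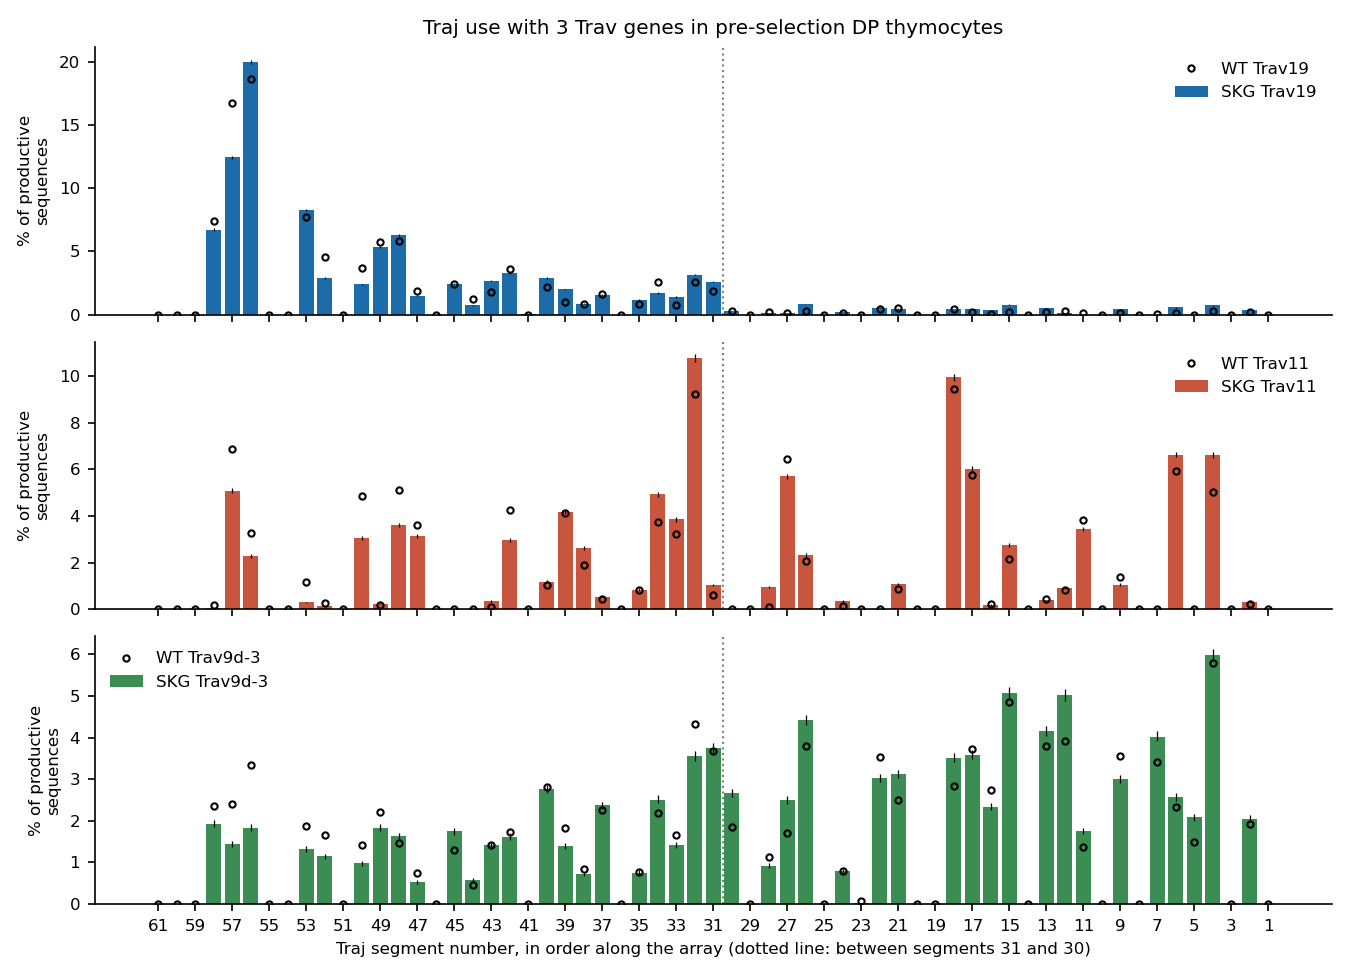
Share of productive sequences (%, y axis, a separate scale in each panel) at each *Traj* segment in array order (x axis) for *Trav19*, *Trav11* and *Trav9d-3*; bars are SKG libraries with 95% Wilson intervals, circles are WT libraries and the dotted line separates segments 31 and 30. *Trav19* peaks at *Traj56* with 20.01%, *Trav11* alternates between high and near-empty segments, and no *Trav9d-3* segment exceeds 5.98%.

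The most used segments reflected these windows. With *Trav19* they were *Traj56* (20.01%), *Traj57* (12.5%), *Traj53* (8.29%), *Traj58* (6.73%) and *Traj48* (6.32%). The gap of 7.55 points between *Traj56* and *Traj57* and that of 4.18 points between *Traj57* and *Traj53* were larger than their scaled 95% intervals allow (standard errors 1.12 and 0.903), whereas *Traj58* and *Traj48* did not differ beyond their error. These neighbours were ranked on the same values. In WT the *Trav19* gap between *Traj56* and *Traj57* was 1.94 points, within its error (scaled standard error 1.23). Between *Traj57* and *Traj53* it was 8.94 points (scaled standard error 1.004). *Trav11* was led by *Traj32* (10.8%) and *Traj18* (9.95%), which lie in different parts of the array and did not differ beyond their error of 1.03 points. *Traj6* (6.64%), *Traj4* (6.60%) and *Traj17* (6.01%) followed, with *Traj18* ahead of *Traj6* by 3.32 points (scaled standard error 0.922). With *Trav9d-3* the first places went to *Traj4* (5.98%), *Traj15* (5.08%), *Traj12* (5.02%), *Traj26* (4.43%) and *Traj13* (4.17%), and no neighbours in this order differed beyond their error.

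Breadth of use increased in the order *Trav19*, *Trav11*, *Trav9d-3*. The effective number of segments, the exponential of Shannon's entropy of the shares, was 19.3 for *Trav19*, 23.0 for *Trav11* and 36.2 for *Trav9d-3*, beside 17.2, 22.9 and 37.1 in WT. The 5 most used segments held 53.8% of the *Trav19* sequences, 39.97% of the *Trav11* sequences and 24.7% of the *Trav9d-3* sequences. To reach 50% of the sequences took 5, 7 and 13 segments in the same order. To reach 90% took 20, 19 and 32 segments, so that by this measure *Trav11* needed no more segments than *Trav19*.

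The *Trav11* profile was the most uneven from one segment to the next. Over the 44 segments with at least 10 sequences in the 3 SKG libraries together, 29 of the 43 steps between neighbours were 4-fold or larger with *Trav11*, 15 with *Trav19* and 5 with *Trav9d-3*. The median step was 8.22-fold, 2.26-fold and 1.87-fold in the same order. The counts of large steps were 30, 8 and 5 in WT. An example is the run from *Traj32* to *Traj27*, where the *Trav11* share went from 10.8% at *Traj32* to 1.04% at *Traj31*, 0 sequences at *Traj30*, 0.944% at *Traj28* and 5.71% at *Traj27*. The *Trav9d-3* shares at the same segments were 3.56%, 3.75%, 2.67%, 0.924% and 2.51%.

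Segment by segment, shares were compared as ratios with 0.5 added to each count, over segments with at least 10 sequences in the pair of libraries, and a ratio of 4-fold or more was called. *Trav9d-3* was called higher than *Trav19* at 21 of 44 segments (47.7%) and lower at 4 (9.09%). Position in the array sorted these calls completely: all 21 distal segments tested were called higher, no proximal segment was, and the 4 called lower, *Traj56*, *Traj57*, *Traj53* and *Traj41*, were proximal. *Traj56* was 10.9-fold, *Traj57* 8.61-fold and *Traj53* 6.28-fold higher with *Trav19*. Of these 25 calls, 20 had a scaled interval that excluded 0 and 24 were called in the same direction in WT. Spearman's rho between the log2 ratio and the *Traj* number was -0.87 over the 44 segments, a description without p because segments of the same libraries are not independent.

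The ratio of *Trav9d-3* to *Trav19* did not rise evenly into the array but stepped between *Traj31* and *Traj30*, whose starts lie 1.97 kb apart. From *Traj44* to *Traj31*, leaving out *Traj41* with its 92 *Trav19* and 0 *Trav9d-3* sequences, the log2 ratio stayed between -1.03 and 0.59 over 12 segments. It was 0.52 at *Traj31* and 3.22 at *Traj30*. The highest log2 ratio among the proximal segments, 0.59 at *Traj37*, lay below the lowest among the distal segments, 2.06 at *Traj24*. The same separation was found in WT, with 1.09 at *Traj33* against 2.27 at *Traj21*, and in unproductive sequences of the same SKG libraries, with 0.98 at *Traj31* against 1.89 at *Traj2*. With *Trav19* alone, the share was 2.61% at *Traj31* and 0.286% at *Traj30*, and 0 of the distal segments reached 1%. This border is the one used to define distal segments, which was chosen with earlier results of these data known.

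**Figure D3:**
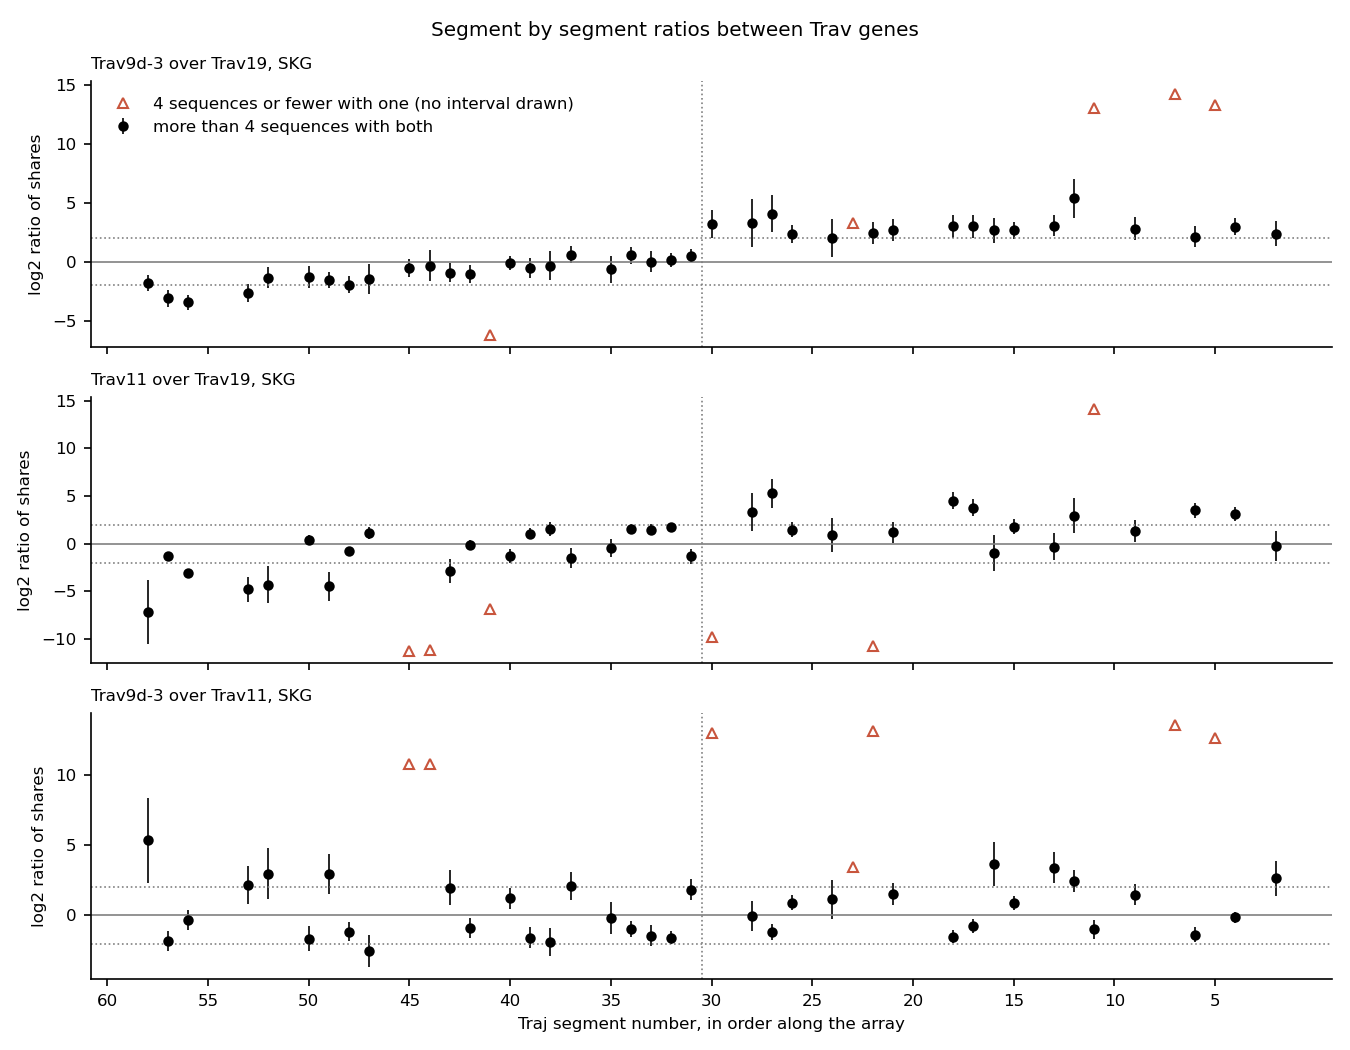
log2 ratio of shares between pairs of *Trav* genes in SKG (y axis) at each *Traj* segment in array order (x axis); bars are 95% intervals with the scaled variance, triangles mark segments with 4 sequences or fewer for one gene, and dotted lines mark 4-fold ratios and the border between segments 31 and 30. In the top panel every distal segment lies above every proximal one, with 0.59 at *Traj37* the highest proximal and 2.06 at *Traj24* the lowest distal log2 ratio.

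*Trav11* and *Trav19* did not separate in this way. *Trav11* was called higher at 8 of 41 segments (19.5%), all of them distal, and lower at 11 (26.8%), of which 9 were proximal and 2 distal. Spearman's rho with the *Traj* number was -0.61. *Traj27* was 38.7-fold higher with *Trav11* (5.71% against 0.147%) and *Traj18* was 22.8-fold higher (9.95% against 0.436%). At the other end, *Traj58* was 144-fold higher with *Trav19* (6.73% against 71 sequences, or 0.0464%) and *Traj53* was 28.0-fold higher (8.29% against 0.296%). *Traj57*, between them in the array, held 12.5% of the *Trav19* and 5.09% of the *Trav11* sequences, a ratio of 2.45-fold that was not called. Of the 19 calls, 16 were made in the same direction in WT, and 13 had a scaled interval that excluded 0.

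*Trav9d-3* was called higher than *Trav11* at 16 of 43 segments (37.2%) and lower at 1 (2.33%). The 16 segments were spread over the array, with 9 distal and 7 proximal, and rho with the *Traj* number was -0.18. The segment called lower was *Traj47*, which was 5.86-fold higher with *Trav11* (3.14% against 0.535%). Next in this direction were *Traj57*, 3.52-fold higher with *Trav11*, and *Traj50*, 3.13-fold higher. Of the 17 calls, 16 were made in WT as well and 10 had a scaled interval that excluded 0.

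The profiles were compared as a whole by their overlap, the sum over segments of the smaller of the 2 shares. It was 37.9% for *Trav11* and *Trav19*, 41.5% for *Trav9d-3* and *Trav19* and 52.5% for *Trav9d-3* and *Trav11*. Each *Trav* gene overlapped far more with itself in WT: 89.1% for *Trav19*, 89.5% for *Trav11* and 91.4% for *Trav9d-3*. Rescaled within the distal segments alone, *Trav9d-3* and *Trav19* overlapped by 78.4%, above the 52.6% of *Trav9d-3* and *Trav11* and the 52.2% of *Trav11* and *Trav19*. *Trav19* in SKG and WT overlapped by 70.0% over these segments, where few *Trav19* sequences lie. Within the proximal segments the overlaps were 62.7%, 56.1% and 47.7% in that order. By overlap, *Trav9d-3* and *Trav19* therefore distributed their sequences within each part of the array more alike than either did with *Trav11*, while differing most in how much they placed in each part. Pearson's r of the shares, with the pairs in the same order, was 0.62, 0.31 and 0.20 within the distal segments. Within the proximal segments r was 0.14, 0.32 and 0.08, so by r *Trav9d-3* was closer to *Trav11* there. Spearman's rho within the proximal segments was 0.52, 0.11 and 0.14.

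A segment was counted as used when it held at least 1% of the sequences of a *Trav* gene. *Trav19* used 20 segments, *Trav11* 23 and *Trav9d-3* 35, and 39 were used with at least 1 of them. The 10 segments used with all 3 genes, *Traj57*, *Traj56*, *Traj48*, *Traj42*, *Traj40*, *Traj39*, *Traj34*, *Traj33*, *Traj32* and *Traj31*, were all proximal. No distal segment reached 1% with *Trav19*, so any list that requires use with *Trav19* can hold only proximal segments. *Trav9d-3* and *Trav19* shared 17 segments, 48.6% of those used with *Trav9d-3* and 85.0% of those used with *Trav19*. *Trav9d-3* and *Trav11* shared 20, which were 57.1% and 87.0% of their lists, and *Trav11* and *Trav19* shared 12, which were 52.2% and 60.0%. The list of *Trav9d-3* thus contained most of both other lists.

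The segments that were not shared differed in place. *Traj27*, *Traj26*, *Traj21*, *Traj18*, *Traj17*, *Traj15*, *Traj11*, *Traj9*, *Traj6* and *Traj4* were used with *Trav11* and *Trav9d-3* but not *Trav19*, and all 10 are distal. *Traj58*, *Traj53*, *Traj52*, *Traj49*, *Traj45*, *Traj43* and *Traj37* were used with *Trav19* and *Trav9d-3* but not *Trav11*, and all 7 are proximal, as was every segment used with *Trav19*. With *Trav9d-3* alone, 8 segments were used, namely *Traj30*, *Traj22*, *Traj16*, *Traj13*, *Traj12*, *Traj7*, *Traj5* and *Traj2*, and the same 8 met this rule in WT. *Traj35* was used with *Trav19* alone and *Traj38* with *Trav11* alone. For *Traj35* the shares were close, at 1.17% with *Trav19*, 0.850% with *Trav11* and 0.756% with *Trav9d-3*. In WT it held 0.884% of the *Trav19* sequences and was not counted as used. *Traj50* and *Traj47* were used with both genes other than *Trav9d-3*, but *Traj50* missed the threshold narrowly with *Trav9d-3*, at 0.982%. On the other side of the threshold, *Traj31* was counted as used with *Trav11* at 1.04%.

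At 6 segments *Trav11* was at or under 3 productive sequences while *Trav9d-3* held at least 0.5%. *Trav11* had 1 sequence with *Traj45* and 0 with *Traj44*, *Traj30*, *Traj22*, *Traj7* and *Traj5*. *Trav9d-3* had 1811 sequences with *Traj45*, 608 with *Traj44*, 2768 with *Traj30*, 3141 with *Traj22*, 4176 with *Traj7* and 2161 with *Traj5*. Together these 6 segments held 14.1% of the *Trav9d-3* sequences, 4.02% of the *Trav19* sequences and 0.000654% of the *Trav11* sequences. With the floor of 3 sequences in place of 0 for *Trav11*, the share with *Trav9d-3* was 2053-fold higher at *Traj7*, 1544-fold at *Traj22* and 1361-fold at *Traj30*. These folds allow for counting error only. With the scaled variance the log2 ratios had intervals that included 0, from -21.9 to 49.1 at *Traj7* and from -22.3 to 48.7 at *Traj22*, so the size of these ratios is not known.

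Of these 6 segments, *Traj45* and *Traj44* are neighbours, while *Traj7* and *Traj5* are separated by *Traj6*, which held 6.64% of the *Trav11* sequences. The unproductive SKG *Trav11* sequences held 117 sequences with *Traj45*, 96 with *Traj22*, 1 with *Traj30* and 0 with the other 3. In the WT *Trav11* library there were 4 productive sequences with *Traj22*, 1 with *Traj30* and 0 with the other 4. *Trav19* also lacked *Traj7* and *Traj5*, with 0 sequences each in either functionality class in SKG, and it lacked *Traj11* with 0. In WT, *Trav19* had 156 productive sequences with *Traj7*, 1 with *Traj5* and 320 with *Traj11*, so the lack of *Traj11* and *Traj7* with *Trav19* was seen in the SKG library only. *Traj11* held 3.46% of the *Trav11* sequences in SKG, 2905-fold more than the floor of 3 sequences with *Trav19*, again allowing for counting error only. In WT the log2 ratio of *Trav11* to *Trav19* at *Traj11* was 4.80. Among segments with at least 1% with *Trav19* or *Trav11*, 0 fell under 0.1% with *Trav9d-3*.

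Other segments were missing with each gene. No productive sequence was found for 16 of the 61 numbers, *Traj61*, *Traj60*, *Traj59*, *Traj55*, *Traj51*, *Traj46*, *Traj36*, *Traj29*, *Traj25*, *Traj20*, *Traj19*, *Traj14*, *Traj10*, *Traj8*, *Traj3* and *Traj1*, and the same 16 were empty in WT. *Traj23* had 4, 2 and 18 productive sequences but 499, 98 and 1898 unproductive ones with *Trav19*, *Trav11* and *Trav9d-3*. Some of the empty numbers also had unproductive SKG sequences: *Traj25* had 61 and *Traj20* had 1 with *Trav9d-3*, and *Traj60* had 2 with *Trav11*. *Traj41* had 92 productive sequences with *Trav19* in SKG and 0 with *Trav11* or *Trav9d-3*. Segments that the files class as open reading frames rather than functional held 3.004% of the *Trav19*, 9.74% of the *Trav11* and 11.1% of the *Trav9d-3* sequences, with *Traj4*, *Traj47*, *Traj44* and *Traj7* among them.

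*Traj18*, at chr14:54200777-54200842, held 9.95% of the *Trav11* sequences (95% CI 9.80 to 10.1), 3.52% of the *Trav9d-3* sequences and 0.436% of the *Trav19* sequences. In WT it held 9.43%, 2.84% and 0.452% in the same order. The *Trav11* share was 2.83-fold that of *Trav9d-3*, under the 4-fold call. *Traj33* held 3.86% with *Trav11*, 1.43% with *Trav9d-3* and 1.40% with *Trav19*. Both segments were thus most used with *Trav11*, but *Traj32* with *Trav11*, which carries no such label, was as high as *Traj18* within its error.

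The SKG *Trav9* library also held sequences of other *Trav9* genes, which were amplified in the same reaction and gave further *Trav* positions without a change of library. Over sequences that listed only the gene in question, the distal share was 19.2% for *Trav9-4*, which ends 478 kb before *Traj61*, and 37.8% for *Trav9-2*, 564 kb before it. In the upstream group it was 66.0% for *Trav9d-4* (1171 kb), 62.8% for *Trav9d-3* (1234 kb) and 62.2% for *Trav9d-2* (1262 kb). The share was 29.6% for *Trav9-3*. *Trav9-4*, *Trav9-3* and *Trav9-2* had distal shares between that of *Trav19* and that of *Trav11*, and the 3 *Trav9d* genes exceeded *Trav11*. Apart from *Trav9d-3* minus *Trav11*, given above, these differences were not tested. Within the upstream group the order did not follow distance, and *Trav9-4* at 478 kb lay 29.5 points below *Trav11* at 635 kb in its nearer copy.

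The effective number of segments of the *Trav9* genes lay between 31.5 for *Trav9-4* and 38.1 for *Trav9-2*. The 6 segments that *Trav11* lacked held between 9.88% (*Trav9-4*) and 15.1% (*Trav9d-4*) of the sequences of each of the other *Trav9* genes. *Trav9-4*, the member nearest to *Trav19*, overlapped with *Trav19* by 68.2% and with *Trav9d-3* by 56.4%. The step seen against *Trav19* was smaller against *Trav9-4*: the log2 ratio of *Trav9d-3* to *Trav9-4* was 0.05 at *Traj31* and 0.72 at *Traj30*. The median log2 ratio of *Trav9d-3* to *Trav9-4* was -1.14 over the proximal and 2.17 over the distal segments.

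**Figure D4:**
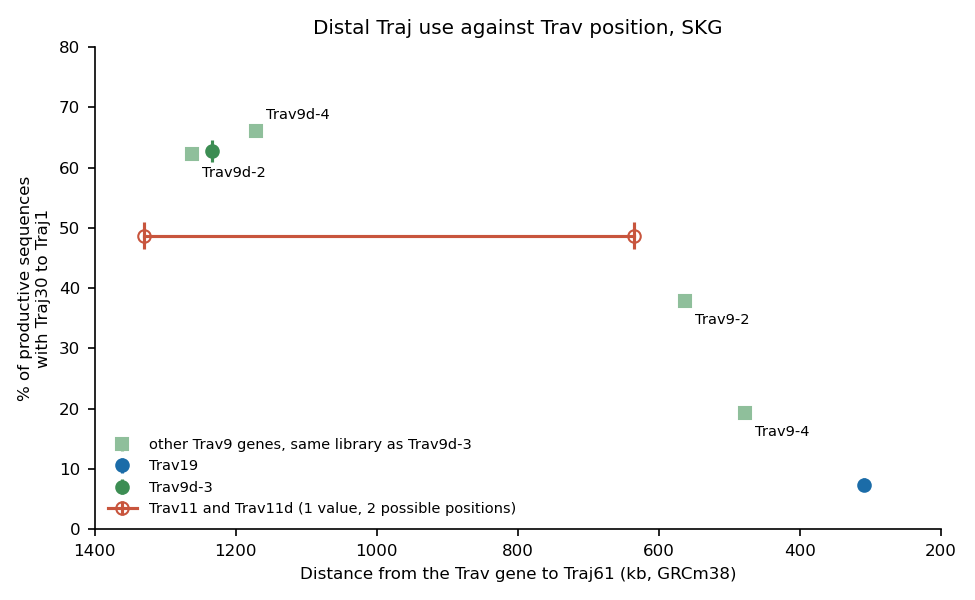
Share of productive SKG sequences with *Traj30* to *Traj1* (%, y axis) against the distance from each *Trav* gene to *Traj61* (kb, x axis, nearest at right); circles are the 3 target genes with 95% intervals on the scaled variance, squares are other *Trav9* genes with 95% Wilson intervals, and the joined open circles show the single *Trav11* value at both possible positions. *Trav19* at 309 kb has 7.39%, *Trav9-4* at 478 kb 19.2% and *Trav9d-4*, *Trav9d-3* and *Trav9d-2*, from 1171 kb on, 62.2% to 66.0%.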

How the data were processed

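Per the labels and the study's methods, total RNA of sorted pre-selection DP thymocytes was reverse transcribed and amplified from a primer in each *Trav* segment to one in the constant region, although the labels call the molecule genomic DNA. MiXCR (clonal sequences), cutadapt 1.13 (primer trimming), a removal of exact duplicates and IMGT/HighV-QUEST (gene assignment) were applied by the authors. Each line of the deposited lists holds an identifier, a functionality class and the assigned V and J genes. No deposited column is a measurement (identifiers only name sequences), so the values are numbers of sequences. Removing exact duplicates leaves each distinct sequence once, but copies of a rearrangement that carry errors still count. An abundant rearrangement can therefore hold many more sequences than a rare one, and how many was not measured.

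The members, segment lists, border and tests were chosen with earlier results of these data known. Groups came from the titles. Sequences that listed more than a single *Traj* gene were left out (1, 2 and 3 for *Trav19*, *Trav11* and *Trav9d-3*), and 1287 of 147934 sequences listing *Trav9d-3* also listed another *Trav* gene. Distal shares and mean *Traj* numbers were compared between SKG libraries by a two-sided quasi-binomial comparison (normal approximation; for means, the variance of the mean was scaled alike). The variance was multiplied by the larger spread factor of the pair. For this factor the productive share was fitted by logistic regression on segment and library, using segments with 50 or more sequences in the WT and in the SKG library, and Pearson's chi-square was divided by its degrees of freedom. It is too large if single segments truly changed their productive share, and too small if rearrangements occur in both classes. Breadth, overlap and ratios have no replicate error and were not tested. Segments were named when they were among the 5 most used with a gene, had one of the 3 highest or lowest ratios of a pair among segments with at least 1%, fell under 0.1% or to at most 3 sequences with a single gene, or were the first or last with 0.1%. *Traj18* and *Traj33* were named in addition, and neighbours of these segments and list members were named after their values were seen. Alternatives varied the functionality class, V and J assignment, border, index, thresholds and folds. A comparison of *Trav11* with *Trav11d* was planned but not run, because 1 and 0 sequences listed them alone. Positions came from the RefSeq table of GRCm38.p6. Scripts were tested on simulated data and run with Python 3.11.15 (statsmodels 0.14.6, scipy 1.17.1, pandas 2.3.3, numpy 2.4.6 and matplotlib 3.10.9).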

Additional observations from a re-analysis of the deposited data

Results flagged for a closer look

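The contrast between *Trav* genes differed between the genotypes on the log odds scale. The log odds ratio of distal use for *Trav11* against *Trav19* was 2.48 in SKG and 2.89 in WT, a difference of -0.414 (scaled standard error 0.147, adjusted p = 0.0145 in a two-sided quasi-binomial comparison over the 3 pairs). For *Trav9d-3* against *Trav19* it was 3.05 in SKG and 3.38 in WT, a difference of -0.338 (scaled standard error 0.151, quasi-binomial adjusted p = 0.0374). For *Trav9d-3* against *Trav11* the difference was 0.0763 (quasi-binomial adjusted p = 0.437). In percentage points the first 2 differences had the opposite sign, 0.738 and 2.43, and did not pass (quasi-binomial adjusted p = 0.707), so these data do not settle a direction. Genotype and library cannot be told apart.

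Sequences of other *Trav* genes were found outside the main measurement. In the SKG *Trav19* library, 5097 sequences, or 1.28%, listed *Trav4d-3* and not *Trav19*, against a limit of 0.000756% that a count of 0 allows. WT had 3841, or 0.900%. In SKG 58.4% of the *Trav4d-3* sequences carried a distal *Traj* segment, led by *Traj22* with 9.97%, and in WT 69.6% did, led by *Traj15* with 13.95%. In the SKG *Trav11* library, 378 sequences, or 0.137%, listed *Trav8d-2*, against a limit of 0.00109%. WT had 224, or 0.0897%. Of the *Trav8d-2* sequences 46.03% were distal in SKG, led by *Traj34* with 22.5%, and 87.1% in WT, where *Traj13* held 25%. Their effective number of segments was 13.2 in SKG and 10.2 in WT. With a spread factor of 78.9 for the *Trav11* sequences of these libraries, counts this small can come from few rearrangements. The differences between the genotypes were not tested.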

How the results depend on the processing

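Over 151 recomputed values in 15 settings, 122 kept their direction and their side of the threshold or, where there was no test, moved by less than their error or by under 1.5 times for counts, 19 moved by more, 3 lost significance and 7 changed sign. Among the 122 are values from settings that altered few sequences, namely no other V gene listed and the first-listed *Traj* gene. Such values could hardly move. The distal and mean *Traj* differences between the *Trav* genes kept sign and significance in every setting except that, with every V assignment counted, *Trav9d-3* minus *Trav11* became -7.69 points and 3.78 segments, where *Trav9d-3* makes up 20.01% of the library. With the border at segment 40 or 20 in place of 30, that difference was 3.21 or 6.90 points. Counting every V assignment gave *Trav9d-3* an effective number of 38.7 and an overlap with *Trav19* of 58.7%. The effective number rose from *Trav19* to *Trav11* to *Trav9d-3* in each setting run. Unproductive sequences gave effective numbers of 17.1, 24.6 and 37.5 for *Trav19*, *Trav11* and *Trav9d-3* and an overlap of 38.1% between *Trav9d-3* and *Trav19*, and both classes together gave 23.9 for *Trav11* and 37.3 for *Trav9d-3*. The inverse Simpson index was 12.2, 18.5 and 32.2. Counts depended on thresholds by construction. Segments used with all 3 genes numbered 19 at 0.5% and 1 at 2%. At 2-fold, 18 segments were called for *Trav11* over *Trav19*, 11 for *Trav19* over *Trav9d-3* and 11 for *Trav11* over *Trav9d-3*. At 8-fold, 11 were called for *Trav9d-3* over *Trav19*, 10 for *Trav9d-3* over *Trav11* and 0 for *Trav11* over *Trav9d-3*.

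The contrasts between genotypes depended on the setting, in alternatives chosen after seeing the data, and the cause was not tested. The first 2 kept sign and significance with both functionality classes (-0.338 and -0.293), with every V assignment (-0.380 and -0.331), with sequences listing no other V gene and with the first-listed *Traj* gene, and with segments 1 to 20 as distal they were -0.610 and -0.600 (quasi-binomial adjusted p = 0.00159 for both). The settings on other V genes and on the first-listed *Traj* gene altered few sequences, so they could hardly move the values. These contrasts did not hold in the other settings. In the order *Trav11* against *Trav19*, *Trav9d-3* against *Trav19* and *Trav9d-3* against *Trav11*, SKG minus WT was -0.192, -0.211 and -0.0188 over unproductive sequences (quasi-binomial adjusted p = 0.424 for the first 2). It was 0.0974, -0.0887 and -0.186 with segments 1 to 40 as distal. In points it was 0.738 and 2.43 for the first 2. No paired analysis was possible because there was 1 library per genotype and *Trav* gene. Depth limits shares under 0.00119% to 0.00289%. Folds against a gene with 0 sequences allow for counting error only, and with the scaled variance their size is not known.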
